A study of Mus musculus with 18 samples.

Results

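The genes described here are 10 genes of the MHC class I pathway, measured by RNA-Seq in mouse bone marrow-derived macrophages (BMDMs). They were picked by name from the pathway. No count enters the rule that lists them, but earlier results of these data were known when they were chosen. They are the class I heavy chains H2-K1 and H2-D1, the light chain B2m, the peptide transporter subunits Tap1 and Tap2 with the loading factor Tapbp, the immunoproteasome subunits Psmb8, Psmb9 and Psmb10, and the proteasome activator subunit Psme2. All 10 were among the 22852 genes of the count files, and all 10 passed the filter on low counts, as 11305 genes did. The 18 samples were BMDMs of C57BL/6 mice, grown with L929 cell conditioned medium, in 6 groups of 3. Unstimulated BMDMs received neither agent. LPS-stimulated BMDMs received LPS at 10 ng/ml for 3 h. The 3 h of this group were taken from the study's treatment scheme, as its text and the sample titles give only the dose. LPS-primed BMDMs received LPS at 100 ng/ml for 24 h. LPS-tolerant BMDMs received the same priming and then, in fresh medium, LPS at 10 ng/ml for 3 h. The remaining groups, LPS-primed and LPS-tolerant in the presence of carboplatin, had 25 µM carboplatin from 1 h before the priming LPS. The study's methods give that order, whereas the protocol in the sample labels names LPS first. These methods have the priming medium removed after 24 h and name no carboplatin in the fresh medium with the second LPS. Carboplatin was not given without LPS in any group. The mice were female by the study's methods, their age was not given in the sources used here, and the 3 replicates of a group were called biological replicates.

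MHC class I molecules show peptides of a cell's own proteins to CD8+ T cells. The proteasome cuts proteins into peptides, the TAP transporter carries these into the endoplasmic reticulum, and the loading complex places them on a heavy chain paired with beta-2-microglobulin. Interferons replace the constitutive catalytic subunits of the proteasome with the immunoproteasome subunits and raise the whole pathway in many cells, macrophages included. LPS induces type I interferon in macrophages, and a macrophage that has seen LPS answers a second LPS with less of many transcripts, a state called LPS tolerance.

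Most of these genes sit together. On chromosome 17 of GRCm39, the build to which the reads had been aligned, GENCODE places Tapbp at chr17:34134873-34148267, H2-K1 at chr17:34214987-34219321, Psmb9 at chr17:34400960-34406738, Tap1 at chr17:34405996-34416199, Psmb8 at chr17:34416690-34420428, Tap2 at chr17:34422501-34435829 and H2-D1 at chr17:35481691-35486475. B2m lies at chr2:121977957-121983594, Psmb10 at chr8:106662362-106665077 and Psme2 at chr14:55824895-55829173. Each is a protein-coding gene, and each count is a sum over its exons. Exons of Tap1 and Psmb9 overlap on opposite strands, and the strand option of the counting was not given in the sources used here. Of the windows of 150 bases along the Psme2 transcript, 32.5% also occur in transcripts of Psme2b, so reads of these 2 genes can be confused. For H2-D1 the share was 1.78%, with H2-Q1, and it was 0 for the other 8 members.

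The promoters of the heavy chains, of B2m and of the Tap1 and Psmb9 pair are shown as a description, and their part in the results below was not tested. Each is the 250 bases before the start site in RefSeq (GRCm38.p6), read on the strand of the gene, and capitals mark matches to 2 short motifs searched on both strands: GGG, any 2 bases, TT, any base and CC, a kB motif of the kind that NF-kB binds, and GAAA, any 2 bases and GAAA, the core of the interferon-stimulated response element (ISRE). The windows are chr17:34000334-34000583 (minus strand) for H2-K1, chr17:35262844-35263093 for H2-D1 and chr2:122147437-122147686 for B2m.
H2-K1: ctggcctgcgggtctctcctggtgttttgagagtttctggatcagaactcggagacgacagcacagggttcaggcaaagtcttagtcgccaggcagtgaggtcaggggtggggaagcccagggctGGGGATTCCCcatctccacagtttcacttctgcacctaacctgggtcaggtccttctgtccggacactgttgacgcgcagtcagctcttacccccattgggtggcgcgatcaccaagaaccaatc
H2-D1: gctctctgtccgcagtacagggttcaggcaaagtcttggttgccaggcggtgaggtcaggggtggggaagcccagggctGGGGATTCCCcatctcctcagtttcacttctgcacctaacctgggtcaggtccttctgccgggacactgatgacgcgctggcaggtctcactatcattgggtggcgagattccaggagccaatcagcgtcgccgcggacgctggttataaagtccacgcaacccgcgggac
B2m: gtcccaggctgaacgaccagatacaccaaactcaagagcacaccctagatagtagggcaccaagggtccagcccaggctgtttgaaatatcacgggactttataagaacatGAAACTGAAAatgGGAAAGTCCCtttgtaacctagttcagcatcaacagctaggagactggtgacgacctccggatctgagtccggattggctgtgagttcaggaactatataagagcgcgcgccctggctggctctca

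The kB match began 125 bases before the start site in H2-K1, 171 in H2-D1 and 126 in B2m, where the ISRE core match, in capitals before it, began 139 bases before the start site. The H2-K1 and H2-D1 promoters share an unbroken stretch of 47 bases that includes the match. Tap1 and Psmb9 are read in opposite directions from 1 stretch of DNA, and the 225 bases between their start sites are in capitals in the window chr17:34187306-34187555, read toward Tap1.
Tap1-Psmb9: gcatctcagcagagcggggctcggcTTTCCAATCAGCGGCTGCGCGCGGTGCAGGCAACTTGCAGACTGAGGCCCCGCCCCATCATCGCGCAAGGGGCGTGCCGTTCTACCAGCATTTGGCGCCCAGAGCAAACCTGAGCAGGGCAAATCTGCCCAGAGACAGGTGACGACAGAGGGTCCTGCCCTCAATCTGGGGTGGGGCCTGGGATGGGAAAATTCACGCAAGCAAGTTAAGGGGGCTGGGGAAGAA

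RefSeq windows were at hand for 9 of the 10 members, in 11 windows, with Tap2 the one without. With the 50 bases after each start site included, the kB letters were in the windows of 3 members, the ISRE core in that of B2m, and TTCNNNGAA, the gamma-interferon activated site (GAS) motif, in that of Psmb8. Of all 32851 RefSeq promoters of this length, 4.79% held the kB letters, 3.44% the ISRE core and 8.3% the GAS letters. A match of letters is a description of the sequence and was not tested for binding. Only these exact letters were searched, so a window without a match may still hold another form of such a site.

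Between 6869667 and 14708099 read pairs per sample (median 8986463) were counted on genes, which was 53.1% to 58.5% of the reads, and the 10 genes took 0.818% to 1.21% of these counts. All 8 macrophage markers were present. Their sum, to which Lyz2 gave the most, was 23634 to 32725 CPM (counts scaled to library size) in the groups that had 24 h of LPS and 15261 to 19205 CPM in the others. Single markers went different ways, with Cd68 at 2542 to 3827 CPM in unstimulated and 1324 to 1839 CPM in LPS-primed samples and Csf1r at 2126 to 2653 and 2490 to 2780 CPM. Of 8 markers of T or NK cells, 5 were at 0 in all samples and the list summed to at most 5.51 CPM. Of the B cell markers, Ighm reached 27.4 to 166 CPM in unstimulated and 7.43 to 29.1 CPM in LPS-stimulated samples and was at most 0.987 CPM in the other groups, with Ms4a1 at or near 0 throughout. The neutrophil list, of which S100a8 made up nearly all, reached 0.781 to 1.41 CPM in unstimulated samples, 4.39 to 12.9 CPM in LPS-stimulated samples and 9.06 to 58.2 CPM in the others, with 3 of its 8 genes at 0 in all samples. The dendritic cell and fibroblast lists summed to at most 1.71 and 8.52 CPM. The part of these transcripts in the results was not tested, and in bulk samples fewer cells of a type and less RNA per cell cannot be told apart. Unstimulated replicate 1 was the highest of its group in all 10 members, and its Irf7, an interferon-induced regulator, stood at 4560 normalized counts against 1098 and 1180 in replicates 2 and 3. Replicate 1 was also the highest in 9 members in LPS-tolerant samples. It was so in 8 in LPS-stimulated samples, 8 in LPS-tolerant samples with carboplatin, and 3 in LPS-primed samples with or without carboplatin. Values without unstimulated replicate 1 are given beside the comparisons with unstimulated BMDMs where they change a call or move a value that passed. Such fits keep replicate 1 of the other group, so they remove a high sample from 1 side only.

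Values below are normalized counts (counts scaled to a common library size). A difference is given as log2FC with its SE, and a gene passed the test when its adjusted p was under 0.05 in the edgeR quasi-likelihood test, adjusted over all 11305 genes by Benjamini and Hochberg, with no limit on the fold. Per kb of transcript, B2m was the most abundant of the 10 in every group, with group means of 22426 to 34115 normalized counts per kb. H2-D1 followed at 12361 to 15523 and H2-K1 at 10365 to 13447. The least abundant were Tap2 at 187 to 300, Tap1 at 181 to 437 and Psmb9 at 158 to 341 normalized counts per kb. Psmb8 (1245 to 1669), Psme2 (905 to 2723), Tapbp (1022 to 1352) and Psmb10 (467 to 976) lay between. The highest group mean of a gene was 1.26 times the lowest for H2-D1, 1.30 for H2-K1, 1.32 for Tapbp, 1.34 for Psmb8, 1.52 for B2m, 1.60 for Tap2, 2.09 for Psmb10, 2.16 for Psmb9, 2.41 for Tap1 and 3.01 for Psme2. The heavy chains thus had the smallest spread of group means, and Psme2 and Tap1 the largest.

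**Figure D1:**
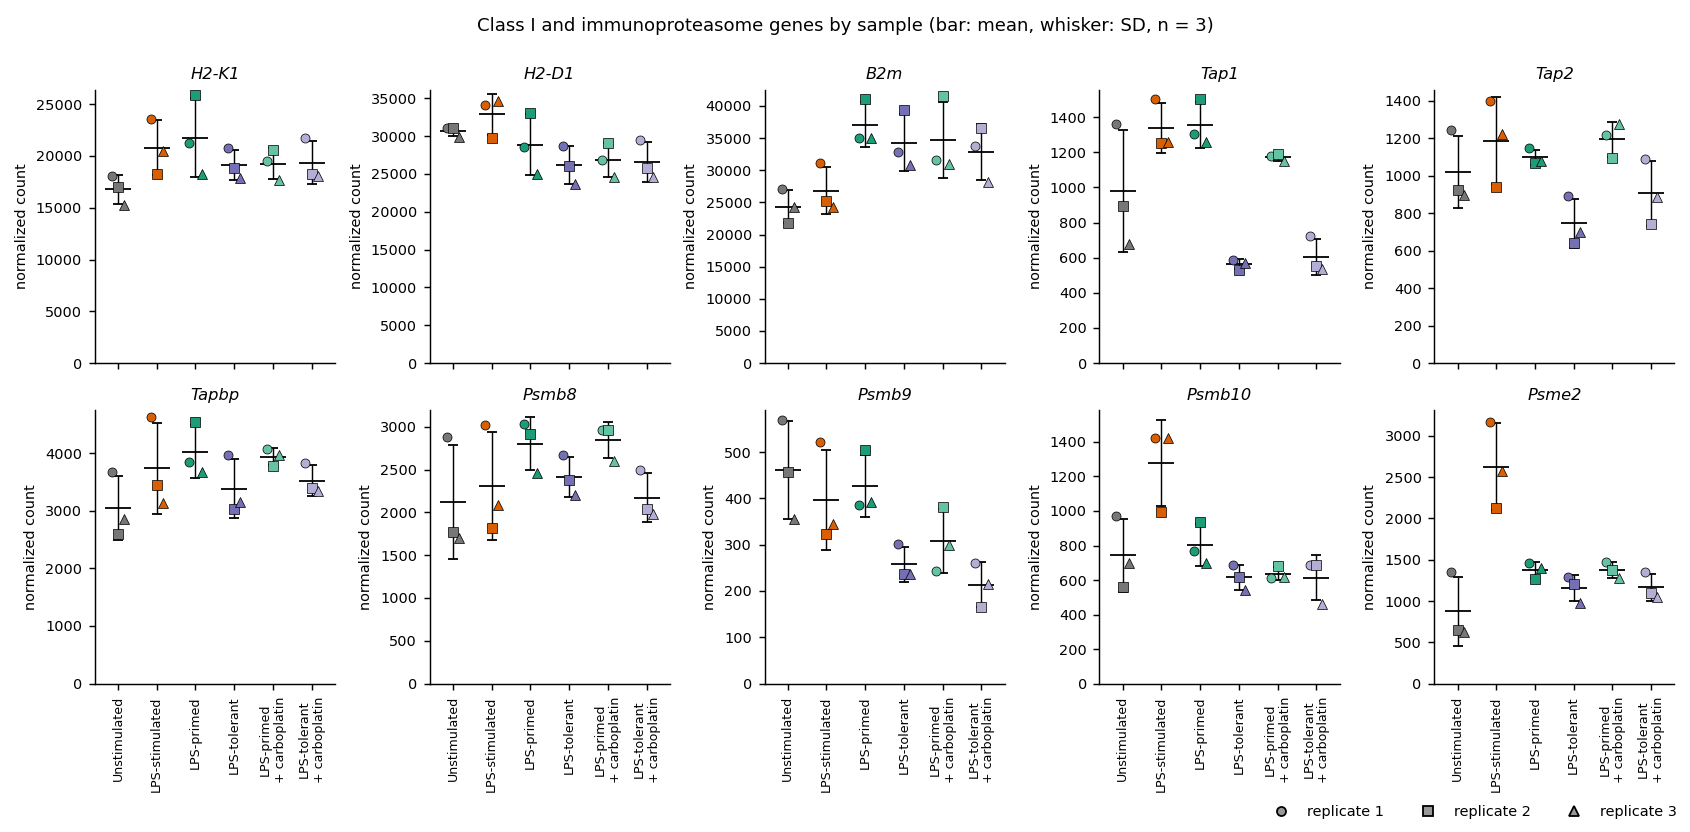
Normalized counts (y axis, linear from 0) of the 10 genes in the 6 groups (x axis), with the replicate number as the point's shape, a bar at the mean and a whisker of 1 SD. Psme2 and Psmb10 stand highest in the LPS-stimulated group, Tap1 lies at 530 to 586 in the LPS-tolerant samples and at 1260 to 1504 in the LPS-primed ones, and B2m is highest in the LPS-primed group.

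In LPS-stimulated against unstimulated BMDMs, which asks what 3 h of a first LPS does, 2 of the 10 genes were higher (Psmb10 and Psme2) and 0 lower, beside 51.2% of all tested genes that passed in either direction (24.3% higher, 26.9% lower). In LPS-primed against unstimulated BMDMs, after 24 h of the higher dose, 1 was higher (B2m) and 0 lower, beside 25.2% (12.1% higher, 13.1% lower). LPS-primed against LPS-stimulated BMDMs differ in dose and time together, and there 1 was higher (B2m) and 2 lower (Psmb10 and Psme2), beside 44.6%. In LPS-tolerant against LPS-stimulated BMDMs, which got the same last dose with and without priming, 4 of the 10 were lower (Tap1, Tap2, Psmb10 and Psme2) and 0 higher, beside 34.5% (16.2% higher, 18.3% lower). In LPS-tolerant against LPS-primed BMDMs, which differ by the second dose and also by the removal of the priming LPS, the fresh medium and 3 more hours, 1 was lower (Tap1), beside 6.31% (3.60% higher, 2.71% lower). The median log2FC of the 10 genes in these 5 comparisons was 0.26, 0.39, 0.04, -0.48 and -0.25, against -0.09, -0.02, 0.03, 0.00 and -0.01 for all tested genes.

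Samples with the same replicate number deviated together, and a fit with that number as a block passed more genes. With the block, 5 of the 10 genes were higher in LPS-stimulated than in unstimulated BMDMs (H2-K1, Tap1 and Tapbp added) beside 63.2% of all genes (29.5% higher, 33.8% lower), and 6 were higher in LPS-primed BMDMs (H2-K1, Tap1, Tapbp, Psmb8 and Psme2 added to B2m) beside 38.6% (18.9% higher, 19.8% lower). Against LPS-stimulated BMDMs, 6 were lower in LPS-tolerant BMDMs (H2-D1 and Psmb9 added) and 1 higher (B2m), beside 47.6% (22.9% higher, 24.7% lower), and against LPS-primed BMDMs 3 were lower (Tap2 and Psmb9 added to Tap1), beside 9.67% of all genes higher and 8.32% lower. Without unstimulated replicate 1 and with no block, 4 were higher in LPS-stimulated BMDMs (Tap1 and Tapbp added) and 5 in LPS-primed BMDMs (Tap1, Tapbp, Psmb8 and Psme2 added). Over the 6 fits of each comparison that left out 1 library, 4911 to 5859 and 2252 to 2531 of all genes passed in either direction. Scaling by library size alone moved the median log2FC of all genes to -0.43 in LPS-stimulated and -0.26 in LPS-primed against unstimulated BMDMs, and under that scaling H2-K1 and Tapbp in LPS-stimulated BMDMs lay at -0.03 and -0.04. LPS-stimulated BMDMs are shared between comparisons, as are LPS-primed BMDMs, so these counts are not independent of each other. Under the study's own limits, which ask for an absolute log2FC above 2 (and, for carboplatin, an adjusted p under 0.25), 0 of the 10 genes passed in any comparison, beside 7.47% of all genes in LPS-primed and 12.0% in LPS-stimulated against unstimulated BMDMs, 9.81% in LPS-primed and 8.04% in LPS-tolerant against LPS-stimulated BMDMs, 0.681% in LPS-tolerant against LPS-primed BMDMs, 8.01% between the second and first LPS responses, and 0.265% and 0.389% with carboplatin.

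**Figure D2:**
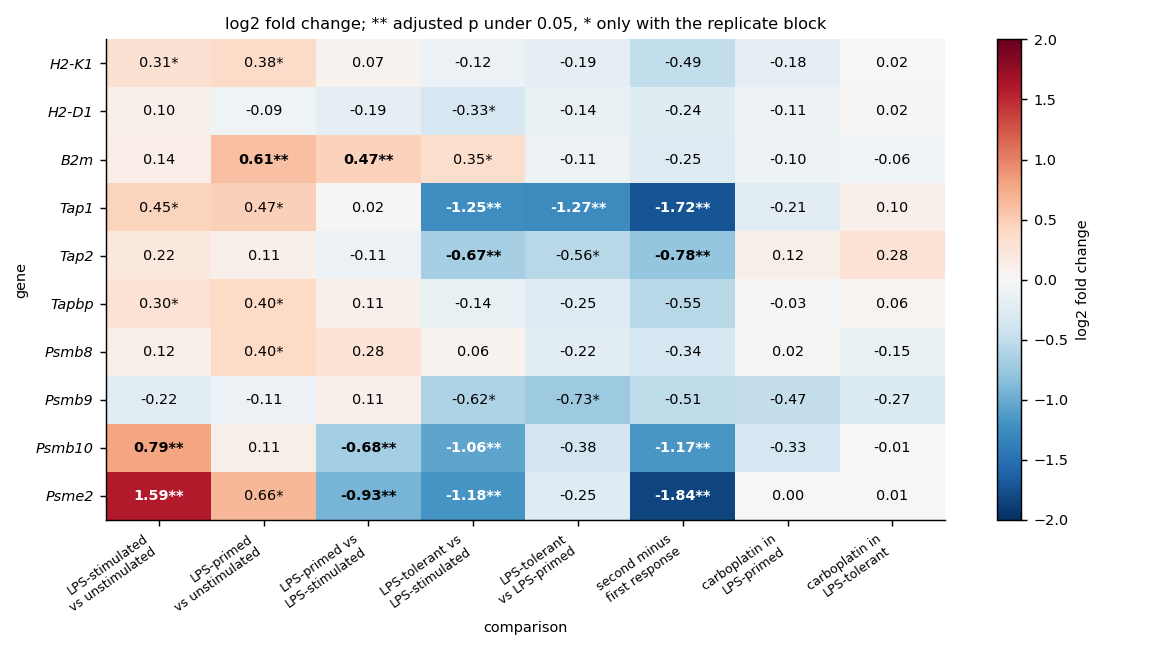
log2FC of each gene (rows) in 8 comparisons (columns), from blue (lower) to red (higher), with 2 asterisks where the adjusted p was under 0.05 and 1 where it was only with the replicate block. Tap1 is at -1.25 and -1.27 in the LPS-tolerant columns, the lowest value, -1.84, is that of Psme2 in the second minus first column, and no value of the carboplatin columns carries an asterisk.

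Of the heavy chains, H2-K1, which presents to CD8+ T cells and to NK cell receptors, ranged from 15309 to 18064 in unstimulated samples, 18285 to 23556 in LPS-stimulated, 18243 to 25856 in LPS-primed and 17832 to 20734 in LPS-tolerant samples. The unstimulated samples lay under all LPS-stimulated and LPS-primed samples and overlapped the LPS-tolerant ones, and the difference did not pass the test (LPS-primed, log2FC 0.38, SE 0.15, adjusted p = 0.072, and 0.013 with the block). H2-D1, the other classical heavy chain of this strain, ranged from 29900 to 31109, 29802 to 34617, 24995 to 33054 and 23723 to 28755 in the same order. Its LPS-tolerant samples lay under the LPS-stimulated ones (log2FC -0.33, SE 0.13, adjusted p = 0.067, and 0.015 with the block). Ranked by group mean, every neighbouring pair of groups overlapped for H2-K1, H2-D1 and B2m.

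B2m, the light chain that every class I heavy chain needs at the surface, stood at 27028, 21759 and 24276 in the unstimulated samples and at 31086, 25219 and 24211 in the LPS-stimulated samples. It stood at 35008, 41085 and 35055 in LPS-primed samples and at 32780, 39313 and 30754 in LPS-tolerant samples. The LPS-primed samples lay above all unstimulated and LPS-stimulated samples, and the LPS-tolerant samples overlapped the LPS-stimulated ones. B2m was 1.52-fold higher in LPS-primed than in unstimulated BMDMs (log2FC 0.61, SE 0.16, adjusted p = 0.0099) and 1.38-fold higher than in LPS-stimulated BMDMs (log2FC 0.47, SE 0.16, adjusted p = 0.026). Without unstimulated replicate 1 the first was 0.70 (adjusted p = 0.010). By library size alone it was 0.37 (adjusted p = 0.091). The second did not pass without LPS-primed replicate 2 (0.39), LPS-stimulated replicate 2 (0.42) or LPS-stimulated replicate 3 (0.40). Its log2FC in LPS-tolerant against LPS-stimulated BMDMs was 0.35 (SE 0.16, adjusted p = 0.10, blocked 0.031), and against LPS-primed BMDMs -0.11 (SE 0.16, adjusted p = 0.75).

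The heavy chains were also set against the light chain. Within each sample, the ratio of H2-D1 to B2m counts per kb was 0.651 ± 0.073 (SD, n = 3) in unstimulated, 0.634 ± 0.088 in LPS-stimulated, 0.399 ± 0.029 in LPS-primed and 0.395 ± 0.055 in LPS-tolerant BMDMs. The LPS-primed samples did not overlap the unstimulated samples, with an exact two-sided permutation p of 0.1, the smallest that 3 against 3 allows. For H2-K1 the ratio was 0.465 ± 0.052, 0.521 ± 0.042, 0.393 ± 0.039 and 0.378 ± 0.052, also without overlap between LPS-primed and unstimulated samples (exact permutation p = 0.1). These ratios were added after the values had been seen, 7 ratios were tested, and at 3 against 3 none of their tests could fall below 0.05.

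Of the peptide transport genes, Tap1, which with Tap2 forms the transporter of peptides into the endoplasmic reticulum, stood at 1358, 895 and 680 in unstimulated samples. It stood at 1505, 1251 and 1258 in LPS-stimulated samples and at 1302, 1504 and 1260 in LPS-primed samples. In LPS-tolerant samples it stood at 586, 530 and 571. All LPS-tolerant samples lay under every sample of the other 3 groups. Tap1 was 2.41-fold lower after the second dose than in LPS-primed BMDMs (log2FC -1.27, SE 0.20, adjusted p = 0.00087) and 2.38-fold lower than in LPS-stimulated BMDMs (log2FC -1.25, SE 0.20, adjusted p = 0.00010), in 3 of 3 same-numbered pairs each. Its log2FC against unstimulated BMDMs was 0.45 in LPS-stimulated (SE 0.19, adjusted p = 0.059, blocked 0.011) and 0.47 in LPS-primed BMDMs (SE 0.19, adjusted p = 0.085, and 0.014 with the block). Without unstimulated replicate 1 these were 0.78 (adjusted p = 0.0012) and 0.80 (adjusted p = 0.0024).

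Tap2 stood at 1242, 924 and 896 in unstimulated, 1398, 938 and 1220 in LPS-stimulated, 1145, 1069 and 1080 in LPS-primed and 894, 640 and 701 in LPS-tolerant samples. The LPS-tolerant samples lay under every sample of the other 3 groups, though narrowly under the unstimulated ones (894 against 896). Against LPS-stimulated BMDMs, Tap2 was 1.59-fold lower in the LPS-tolerant ones (log2FC -0.67, SE 0.18, adjusted p = 0.0085), and its log2FC against LPS-primed BMDMs was -0.56 (SE 0.18, adjusted p = 0.079, blocked 0.0024). Per kb, the ratio of Tap1 to Tap2 was 1.58 ± 0.19 in LPS-primed and 0.981 ± 0.12 in LPS-tolerant samples, without overlap (exact permutation p = 0.1). Tapbp, or tapasin, which bridges the transporter and the heavy chain, ranged from 2603 to 3670 in unstimulated, 3127 to 4637 in LPS-stimulated, 3682 to 4547 in LPS-primed and 3034 to 3967 in LPS-tolerant samples. Its LPS-primed samples lay above the unstimulated ones (log2FC 0.40, SE 0.17, adjusted p = 0.087, and 0.011 with the block), and the difference passed without unstimulated replicate 1 (0.57, adjusted p = 0.026), and its LPS-tolerant samples overlapped every other group (log2FC -0.14 against LPS-stimulated and -0.25 against LPS-primed BMDMs, adjusted p = 0.54 and 0.42).

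Of the immunoproteasome subunits, Psmb10 (MECL-1), which replaces Psmb7, stood at 970, 559 and 697 in unstimulated samples and at 1423, 993 and 1426 in LPS-stimulated samples. It stood at 766, 935 and 701 in LPS-primed and 686, 618 and 542 in LPS-tolerant samples. The LPS-stimulated samples lay above all others. Psmb10 was 1.73-fold higher in LPS-stimulated than in unstimulated BMDMs (log2FC 0.79, SE 0.21, adjusted p = 0.0047), 1.60-fold lower in LPS-primed than in LPS-stimulated BMDMs (log2FC -0.68, SE 0.21, adjusted p = 0.014) and 2.08-fold lower with priming before the same last dose (LPS-tolerant against LPS-stimulated, log2FC -1.06, SE 0.21, adjusted p = 0.00085). The first was 1.05 without unstimulated replicate 1 (adjusted p = 0.00085). By library size alone it was 0.45 (adjusted p = 0.066), and the second did not pass without LPS-primed replicate 3 or without LPS-stimulated replicate 3 (-0.59 in both). Its log2FC in LPS-tolerant against LPS-primed BMDMs was -0.38 (SE 0.21, adjusted p = 0.32).

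Psmb8 (LMP7), which replaces Psmb5, stood at 2885, 1769 and 1704 in unstimulated, 3022, 1817 and 2086 in LPS-stimulated, 3034, 2919 and 2458 in LPS-primed and 2664, 2377 and 2198 in LPS-tolerant samples. It passed the test in none of the 5 comparisons (adjusted p from 0.17 to 0.84). In LPS-primed against unstimulated BMDMs it passed with the block (log2FC 0.43, adjusted p = 0.014) and without unstimulated replicate 1 (0.70, adjusted p = 0.015). Psmb9 (LMP2), which replaces Psmb6 and shares the promoter shown above with Tap1, stood at 570, 457 and 356 in unstimulated and 521, 324 and 345 in LPS-stimulated samples. It stood at 385, 505 and 392 in LPS-primed and at 301, 236 and 236 in LPS-tolerant samples. The LPS-tolerant samples lay under every sample of the other 3 groups. Against LPS-stimulated and LPS-primed BMDMs the difference was in the direction of Tap1, at log2FC -0.62 (SE 0.24, adjusted p = 0.052, blocked 0.023) and -0.73 (SE 0.24, adjusted p = 0.079, blocked 0.020). In LPS-stimulated against unstimulated BMDMs, where Tap1 lay at 0.45, Psmb9 lay at -0.22 (SE 0.23, adjusted p = 0.46).

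Psme2 encodes the beta subunit of PA28, the interferon-inducible cap that opens the proteasome core. It stood at 1356, 643 and 622 in unstimulated samples and at 3174, 2132 and 2577 in LPS-stimulated samples. It stood at 1465, 1271 and 1394 in LPS-primed and at 1285, 1206 and 978 in LPS-tolerant samples. The LPS-stimulated samples lay above all samples of every other group. Psme2 was 3.01-fold higher in LPS-stimulated than in unstimulated BMDMs (log2FC 1.59, SE 0.24, adjusted p = 4.2e-05), 1.91-fold lower in LPS-primed than in LPS-stimulated BMDMs (log2FC -0.93, SE 0.24, adjusted p = 0.0045) and 2.27-fold lower with priming before the same last dose (LPS-tolerant against LPS-stimulated, log2FC -1.18, SE 0.24, adjusted p = 0.0010). The first was 2.07 without unstimulated replicate 1. Its log2FC in LPS-primed against unstimulated BMDMs was 0.66 (SE 0.24, adjusted p = 0.053, 0.0023 with the block, and 0.00027 at a log2FC of 1.13 without unstimulated replicate 1). Psme2b, with which it shares sequence and which was looked up for that reason, had a log2FC of 0.79 in LPS-stimulated against unstimulated BMDMs (adjusted p = 0.0016) and -0.87 in LPS-tolerant against LPS-stimulated BMDMs (adjusted p = 0.0012). The partner subunit Psme1 ranged from 1566 to 2443 and from 1672 to 2879 in unstimulated and LPS-stimulated samples (log2FC 0.18, SE 0.22, adjusted p = 0.52).

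The response to the second LPS was then set against the response to the first. Both end with 10 ng/ml for 3 h, after priming in one case (LPS-tolerant minus LPS-primed) and from unstimulated cells in the other (LPS-stimulated minus unstimulated). The second also contains the removal of the priming LPS and the change to fresh medium, and with no group given fresh medium alone these cannot be told apart from the second dose. Of the 10 genes, 4 had a lower second than first response and 0 a higher one, beside 23.8% of all tested genes that differed in either direction (10.5% higher, 13.3% lower). With the block 6 of the 10 passed, H2-K1 and Tapbp added, beside 36.2% of all genes, though not all of these same-numbered samples correlated over 0.1. The difference was -1.84 for Psme2 (SE 0.34, adjusted p = 0.00069), -1.72 for Tap1 (SE 0.27, adjusted p = 0.00018), -1.17 for Psmb10 (SE 0.30, adjusted p = 0.0080) and -0.78 for Tap2 (SE 0.26, adjusted p = 0.037). The other 6 lay between -0.24 (H2-D1) and -0.55 (Tapbp), and all 10 were below 0 in 3 of 3 sets of same-numbered samples. Of all 11305 tested genes, 5275 had a difference below 0, and how many were so in 3 of 3 sets was not counted. Whether the 4 genes differed from each other in either response was not tested. The first response was 1.59 for Psme2 and 0.79 for Psmb10, with second responses of -0.25 and -0.38. It was 0.45 for Tap1 and 0.22 for Tap2, with second responses of -1.27 and -0.56. With unstimulated replicate 1 left out, the first response was 2.07 for Psme2, 1.05 for Psmb10 and 0.78 for Tap1. The Tap2 difference passed in 3 of the 12 fits that left out 1 library, against 12 of 12 for Tap1, Psmb10 and Psme2, and at -0.55 it did not pass by library size alone (adjusted p = 0.11), where the median of all genes moved to 0.30. Without unstimulated replicate 1 the differences of Psme2, Tap1, Psmb10 and Tap2 were -2.31, -2.03, -1.41 and -0.94, and Tapbp passed as well (-0.71, adjusted p = 0.038).

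**Figure D3:**
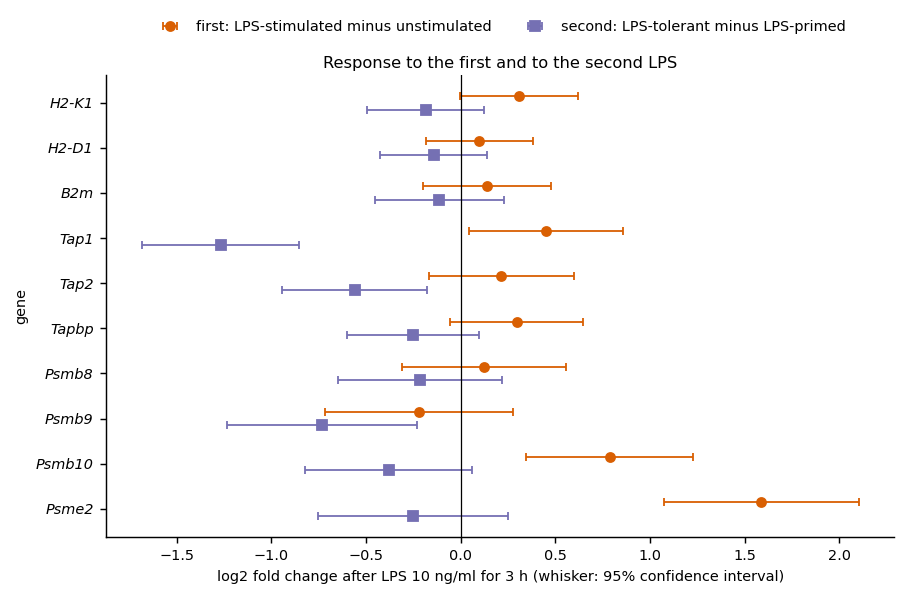
log2FC (x axis) of each gene (y axis) after LPS at 10 ng/ml for 3 h, in unstimulated BMDMs (orange circles, the first response) and in LPS-primed BMDMs (purple squares, the second), with 95% confidence intervals from the edgeR fit. The intervals of the 2 responses are apart for Tap1, Psmb10 and Psme2 and barely so for Tap2 (-0.17 against -0.18 at their nearest ends), and the first response of Psme2 reaches 1.59.

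The immunoproteasome subunits were also set against the constitutive subunits whose places they take. Psmb5, Psmb6 and Psmb7, the constitutive catalytic subunits, were higher in LPS-stimulated than in unstimulated BMDMs in 3 of 3 (log2FC 0.56, 1.15 and 0.57, adjusted p = 0.039, 0.0014 and 0.0051). In LPS-primed BMDMs Psmb5 was higher (log2FC 1.13, SE 0.22, adjusted p = 0.00097), and Psmb6 and Psmb7 lay at 0.58 (adjusted p = 0.12) and 0.40 (adjusted p = 0.063), with 3 of 3 higher with the block. The counts per kb of Psmb8 over Psmb5 were 3.14 ± 0.31 (SD, n = 3) in unstimulated, 2.34 ± 0.38 in LPS-stimulated, 1.95 ± 0.20 in LPS-primed and 1.62 ± 0.31 in LPS-tolerant BMDMs. Those of Psmb9 over Psmb6 were 0.301 ± 0.010, 0.114 ± 0.015, 0.194 ± 0.058 and 0.0965 ± 0.0079 in the same order. Those of Psmb10 over Psmb7 were 0.632 ± 0.12, 0.738 ± 0.13, 0.520 ± 0.092 and 0.343 ± 0.030. The unstimulated samples lay above the LPS-primed ones for Psmb8 over Psmb5 and Psmb9 over Psmb6 and overlapped them for Psmb10 over Psmb7 (exact permutation p = 0.1, 0.1 and 0.2). The LPS-tolerant samples lay under the LPS-stimulated ones only for Psmb10 over Psmb7 (exact permutation p = 0.1, against 0.2 for each of the others). For Psmb5, 13.5% of the windows of 150 bases also occur in transcripts of other genes. Psme2 over Psme1 was 2.83-fold higher in LPS-stimulated than in unstimulated samples and 1.65-fold lower in LPS-tolerant samples than after a first LPS, both without overlap (exact permutation p = 0.1).

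**Figure D4:**
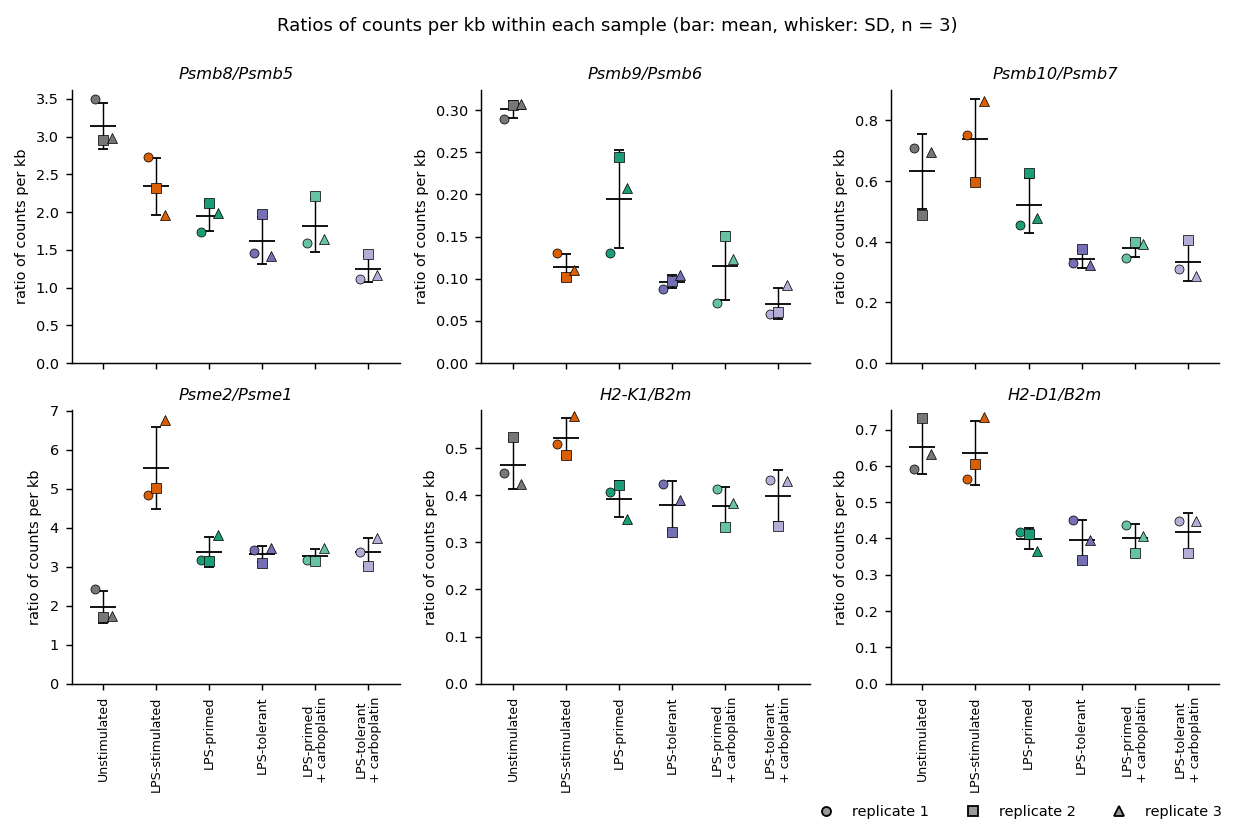
Ratio of counts per kb of canonical transcript (y axis, linear from 0) for 6 gene pairs in the 6 groups (x axis), with the replicate number as the point's shape, a bar at the mean and a whisker of 1 SD. Psmb9 over Psmb6 lies at 0.289 to 0.308 in the unstimulated samples and at 0.102 to 0.131 in the LPS-stimulated ones, and the height of the Psme2 over Psme1 panel depends on the 4.23 kb transcript taken for Psme1.

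In the presence of carboplatin, a platinum drug that crosslinks DNA, 0 of the 10 genes passed the test in LPS-primed BMDMs, beside 0.372% of all tested genes, and 0 in LPS-tolerant BMDMs, beside 0.425%. None of the 10 was under an unadjusted p of 0.05 in either comparison, beside 776 and 761 of the 11305 genes. With the block 1 of the 10 was in each, beside 1553 and 1398 of all genes. The count that passed the test was also 0 with the block (1.77% of all genes in each), with DESeq2 and with limma-voom. The lowest log2FC was that of Psmb9 in LPS-primed BMDMs, at 243, 381 and 299 with carboplatin against 385, 505 and 392 without. The samples did not overlap, and the log2FC was -0.47 (95% confidence interval -0.97 to 0.03, adjusted p = 0.75). In LPS-tolerant BMDMs Psmb9 lay at -0.27 (interval -0.78 to 0.24). Tap2 had the highest log2FC, 0.28 in LPS-tolerant BMDMs (interval -0.10 to 0.67, adjusted p = 0.93), with 1088, 745 and 886 with carboplatin against 894, 640 and 701 without. For H2-D1 the intervals were -0.39 to 0.17 in LPS-primed and -0.26 to 0.31 in LPS-tolerant BMDMs, and for Psme2 they were -0.51 to 0.50 and -0.49 to 0.52. Tap1 in LPS-tolerant BMDMs stood at 723, 554 and 537 with carboplatin and overlapped the 530 to 586 without (log2FC 0.10, interval -0.31 to 0.51). In LPS-primed BMDMs the samples with carboplatin lay under those without for Tap1 and Psmb10 as well, at log2FC of -0.21 (interval -0.61 to 0.20) and -0.33 (interval -0.77 to 0.11). Neither these nor Psmb9 passed the test, and the share of all genes whose samples lay apart in this way was not counted. Set against each other, the effects of carboplatin on tolerant and on primed cells differed by between -0.17 and 0.33 for the 10 genes, and 0 of the 10 and 0.00% of all genes passed, with 131 of all genes and none of the 10 under an unadjusted p of 0.05.

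The transcription regulators of the pathway were given by a list of 12 genes. In LPS-stimulated against unstimulated BMDMs, 4 rose and 3 fell (beside 24.3% and 26.9% of all genes), in LPS-primed BMDMs none passed (1 with the block), and in LPS-tolerant against LPS-stimulated BMDMs 2 were higher and 7 lower (beside 16.2% and 18.3%), with their median at -0.62 where that of all genes was 0.00. Irf1, which binds ISRE sites of class I and immunoproteasome genes, stood at 558, 524 and 564 in unstimulated samples and at 2395, 2004 and 1544 in LPS-stimulated samples. It stood at 351, 695 and 512 in LPS-primed samples and at 242, 296 and 298 in LPS-tolerant samples. Irf1 was thus higher in LPS-stimulated than in unstimulated BMDMs (log2FC 1.85, SE 0.23, adjusted p = 4.84e-06), and LPS-tolerant BMDMs had less of it than LPS-stimulated (log2FC -2.83, SE 0.24, adjusted p = 1.64e-07) and LPS-primed BMDMs (log2FC -0.90, SE 0.23, adjusted p = 0.028).

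Nlrc5, the transactivator of MHC class I genes, stood at 595, 457 and 497 in unstimulated, 413, 376 and 368 in LPS-stimulated, 379, 664 and 454 in LPS-primed and 217, 222 and 168 in LPS-tolerant samples. It was 2.47-fold lower after the second dose than in LPS-primed BMDMs (log2FC -1.30, SE 0.20, adjusted p = 0.00070) and lower than in LPS-stimulated BMDMs (log2FC -0.93, SE 0.19, adjusted p = 0.0013). Its values in LPS-tolerant samples lay under those of all samples of the other 3 groups, as those of Tap1, Tap2 and Psmb9 did. The share of all genes with LPS-tolerant samples apart in this way was not counted. By the smallest p, Nfkb1, a subunit of NF-kB, rose in LPS-stimulated BMDMs (log2FC 3.10) and Irf8, a macrophage lineage factor, fell (-2.35), and both were turned in LPS-tolerant against LPS-stimulated BMDMs (-2.19 and 2.32). In LPS-primed against unstimulated BMDMs, Rfxap, a subunit of the RFX factor of MHC promoters, had the smallest p, at 0.40 (adjusted p = 0.15).

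**Figure D5:**
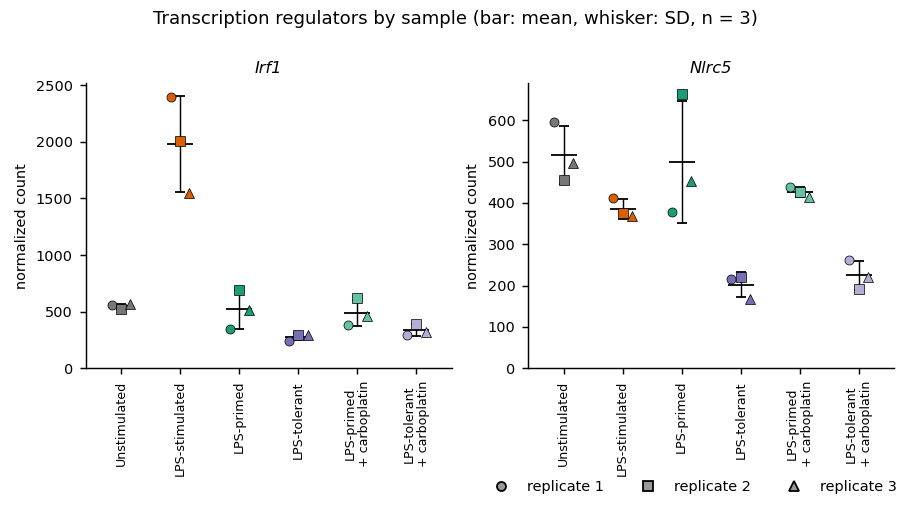
Normalized counts (y axis, linear from 0) of Irf1 and Nlrc5 in the 6 groups (x axis), with the replicate number as the point's shape, a bar at the mean and a whisker of 1 SD. Irf1 reaches 1544 to 2395 in the LPS-stimulated samples, and Nlrc5 is lowest, at 168 to 222, in the LPS-tolerant samples without carboplatin.

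The further genes of antigen processing moved in more than one direction. Their counts are to be read beside the shares of all genes that passed, which were 12.1% higher and 13.1% lower in LPS-primed and 24.3% higher and 26.9% lower in LPS-stimulated against unstimulated BMDMs, and 16.2% higher and 18.3% lower in LPS-tolerant against LPS-stimulated BMDMs. The 2 of 9 loading genes in LPS-stimulated BMDMs, for one, are near that share. Of 9 genes of peptide loading and trimming, 4 were higher in LPS-primed than in unstimulated BMDMs and 0 lower (7 higher with the block), led by the chaperones Calr (log2FC 1.18, adjusted p = 5.7e-05) and Pdia3 (0.85, adjusted p = 0.00048). In LPS-stimulated BMDMs 2 were higher, the vesicle SNARE Sec22b (0.81, adjusted p = 0.00011) and the tapasin relative Tapbpl (0.74, adjusted p = 0.0015). In LPS-tolerant against LPS-stimulated BMDMs 3 were higher and 1 lower, with Tapbpl at -1.05 (adjusted p = 0.00014) and Bcap31 at 0.60 (adjusted p = 0.00078). Tapbpl thus lay at 143 to 152 in LPS-tolerant, 245 to 347 in LPS-stimulated and 177 to 190 in unstimulated samples.

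Of 15 listed class I heavy chains other than H2-K1 and H2-D1, 14 were in the files and 10 passed the filter. Among these 10, 4 were higher in LPS-primed than in unstimulated BMDMs, with H2-M2 at 4.50 (adjusted p = 7.4e-06) and the lipid-presenting Cd1d1 at 1.64 (adjusted p = 6.7e-05). In LPS-stimulated BMDMs 4 were higher and 4 lower, with the nonclassical H2-Q7 at 2.11 (adjusted p = 3.0e-05) and Mr1, which presents vitamin B metabolites, at -1.82 (adjusted p = 0.00014). In LPS-tolerant against LPS-stimulated BMDMs 3 were higher and 2 lower, with Cd1d1 at 2.72 and H2-M2 at 2.42. H2-M2 lay at 4.54 to 9.56 in unstimulated, 42.2 to 66.8 in LPS-stimulated, 79.8 to 252 in LPS-primed and 211 to 363 in LPS-tolerant samples, a low-count gene beside the 2 classical heavy chains.

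The counts of the shared proteasome genes depended on the scaling, and for the 20S list so did their direction in LPS-stimulated BMDMs. Of the 16 genes of the shared 20S core and its assembly, 6 were higher and 0 lower in LPS-primed BMDMs (9 and 1 with the block), with Psma6 at 1.09 and Psma1 at 0.64, and 6 were higher and 1 lower in LPS-stimulated BMDMs, with Psma6 at 1.99 and Psma3 at 0.74. In LPS-tolerant against LPS-stimulated BMDMs 3 were higher and 1 lower (6 and 1 with the block), with Psma6 at -0.78 (adjusted p = 0.00033) and the assembly chaperone Psmg4 at 1.03 (adjusted p = 0.0020). Of 25 genes of the 19S cap and other activators, 9 were higher in LPS-primed (16 with the block) and 13 in LPS-stimulated BMDMs, and 0 lower in either. Psmd10 led the first (1.28) and, with the PA28 gamma gene Psme3 (1.22 and 1.30), the second, and Psmd7 followed in LPS-primed BMDMs (0.64). LPS-tolerant against LPS-stimulated BMDMs had 0 higher and 1 lower, Psme3 at -0.48 (adjusted p = 0.042), and Psmd11 lay at -0.37 (adjusted p = 0.055), with 4 higher and 3 lower with the block. By library size alone, where the median of all genes moved to -0.26 and -0.43, the 20S list had 2 higher and 1 lower in LPS-primed and 1 higher and 2 lower in LPS-stimulated BMDMs, and the 19S and activator list had 1 and 1, and 6 and 0. Among the 3 constitutive subunits in LPS-tolerant against LPS-stimulated BMDMs, in the main edgeR fit, Psmb5 was higher (log2FC 0.63, adjusted p = 0.031). Psmb6 lay there at -0.35 (adjusted p = 0.32, and 0.0088 with the block).

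Of 10 tested MHC class II genes, 4 were higher and 1 lower in LPS-stimulated BMDMs, with the class II chains H2-Eb1 at 1.50 and H2-Ab1 at 1.96, and 1 was higher and 1 lower in LPS-primed BMDMs, with H2-Ab1 at 2.76 (adjusted p = 0.00069). LPS-tolerant against LPS-stimulated BMDMs had 0 higher and 4 lower, with H2-Eb1 at -2.43 (adjusted p = 3.2e-05). Ciita, the class II transactivator and the other gene with the smallest p, ranged from 14.3 to 27.3 in unstimulated and 27.7 to 46.5 in LPS-stimulated samples and was at 0 to 2.28 in LPS-primed and 0 to 2.06 in LPS-tolerant samples, too few for a fold. Of 19 tested type I interferon-stimulated genes, 6 were higher and 0 lower in LPS-stimulated BMDMs, with the chemokine Cxcl10 at 5.48 and Isg15 at 2.05, and 1 was higher in LPS-primed BMDMs (Irf7, 1.85, adjusted p = 0.016), where Ifit3 lay at -1.87 (adjusted p = 0.051). With the block the latter count was 2 higher and 2 lower. Without unstimulated replicate 1, 11 were higher in LPS-stimulated BMDMs (median log2FC 1.02, against 0.28 with it) and 5 in LPS-primed BMDMs (median 0.80, against 0.19). Of all genes, 4911 to 5859 and 2252 to 2531 passed in these comparisons over the fits that left out 1 library. In LPS-tolerant against LPS-stimulated BMDMs 1 was higher and 13 were lower, with their median at -1.29 where that of all genes was 0.00, Cxcl10 at -4.80 and Ifit1 at -3.34. In both carboplatin comparisons none of the genes in these 8 lists passed the test (with the block, 2 genes of the 19S and activator list and 1 regulator in LPS-tolerant BMDMs).

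Across the 18 samples, the mean of the 10 genes, each as a z score of its log2 CPM, was highest in LPS-stimulated replicate 1 (1.44) and LPS-primed replicate 2 (1.11). It was lowest in LPS-tolerant replicate 3 (-0.92), with unstimulated replicate 3 (-0.91) and LPS-tolerant replicate 3 with carboplatin (-0.91) close to it. The genes outside these lists that followed it most closely were Oas1g (Pearson r = 0.86 over 18 samples), Ifi35 (0.86), Gsdmd (0.85), Zbp1 (0.84) and Cst7 (0.80). The 18 points share their groups and replicate numbers, so these values are a description. Against the mean of the other 9, Tap1 (r = 0.77) and H2-K1 (0.75) were the closest members and B2m (0.18) the farthest.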

How the data were processed

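RNA was sequenced from 18 samples in 6 groups of 3, grouped by the sample labels. Per the study's methods, poly(A) libraries from a stranded kit were sequenced, and the authors aligned reads to GRCm39 with HISAT2 and deposited raw HTSeq counts per gene. The submitters' processing notes also name DESeq2. Tool versions, annotation and the strand option were not given in the sources used here. Rows that name no gene were left out: 26.5% to 33.1% of reads per sample had no feature, 0.103% to 0.286% were ambiguous, 4.90% to 6.52% were of low quality and 4.21% to 5.18% aligned to more than 1 place. Total counts were 6869667 to 14708099 per sample, and the depth limits the precision of low-count genes most.

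The deposited counts were fitted across all 18 samples with edgeR 4.0.16 (R 4.3.3): filterByExpr with a minimum count of 10 and a minimum total of 15, TMM scaling, quasi-likelihood F test, and Benjamini-Hochberg adjustment over 11305 genes. SE is the log2FC over the square root of F, and 95% intervals use the test's degrees of freedom. Normalized counts are counts over the scaled library size times the mean of these sizes. Alternatives used DESeq2 1.42.0 and limma 3.58.1. The scripts were tested on simulated data.

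The 10 genes and the pathway lists were chosen with earlier results of these data known. Named list genes are the 2 of each list with the smallest p in a comparison, in the comparisons of LPS-primed and LPS-stimulated with unstimulated BMDMs and of LPS-tolerant with LPS-stimulated BMDMs, besides the partners Psmb5, Psmb6, Psmb7 and Psme1 and the regulators Irf1 and Nlrc5, which are always named. A further gene that this rule names is not reported here. The 5 genes most like the members are those with the highest Pearson r to their mean. Ratios, and the recounts of lists, were added after the values were seen. The replicate numbers are in the labels, and no source says what they share. Over 45 same-numbered pairs, deviations from group means correlated at 0.063 to 0.574. Every pair was over 0.1 in the comparisons with unstimulated BMDMs, of LPS-tolerant with other BMDMs and with carboplatin, so blocked values stand beside those results. One pair, LPS-stimulated and LPS-primed replicate 3, was not. Nothing in the sources says that the replicates came from separate mice, so p-values may measure technical spread only. Replicates differed by more than sampling noise.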

Additional observations from a re-analysis of the deposited data

Results flagged for a closer look

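For 4 of the 10 genes the response that ended with LPS at 10 ng/ml for 3 h differed between LPS-primed and unstimulated BMDMs in a test of the difference itself, the interaction term of the edgeR fit. The second response minus the first was -1.72 for Tap1, -0.78 for Tap2, -1.17 for Psmb10 and -1.84 for Psme2. All 10 genes were below 0 in 3 of 3 sets of same-numbered samples, so that count does not set these 4 apart. Tap2 passed in only 3 of the 12 fits that left out 1 library and did not pass by library size alone (-0.55, adjusted p = 0.11), and the second response also contains the change to fresh medium.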

How the results depend on the processing

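Of the counts of the 10 genes that passed, that of LPS-primed against unstimulated BMDMs was 1 and became 0 by library size alone, 2 with no filter, 3 with DESeq2, 3 with limma-voom and 6 with the replicate block. That of LPS-stimulated against unstimulated BMDMs was 2 and became 1 by library size alone and 5 with the block. That of LPS-tolerant against LPS-stimulated BMDMs was 4 and became 7 with the block, and that of LPS-tolerant against LPS-primed BMDMs was 1 and became 3 by library size alone, 2 with DESeq2 and 3 with the block. In the difference between the second and first responses, where a pair of samples did not correlate over 0.1, the block gave 6 against 4. Under the study's own limits, which ask for an absolute log2FC above 2, the count was 0 in every comparison. Leaving out 1 library gave 1 to 5, 2 to 4, 1 to 4 (LPS-primed against LPS-stimulated), 4 to 5, 1 and, for the difference of responses, 3 to 5. The low of 1 was without LPS-stimulated replicate 3, where Psme2 alone passed. B2m in LPS-primed against LPS-stimulated BMDMs was also lost without LPS-primed replicate 2 (0.39, adjusted p = 0.0999) or LPS-stimulated replicate 2 (0.42, adjusted p = 0.086), Psmb10 there without LPS-primed replicate 3 (-0.59, adjusted p = 0.062), and B2m again with only those groups fitted (0.47, adjusted p = 0.055). No value of the 10 genes past the threshold changed its direction, and the cause of each change was not tested.

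Of all genes, 2847 passed in LPS-primed against unstimulated BMDMs (4367 with the block, 845 under the study's limits), 5789 in LPS-stimulated against unstimulated (1352 under the limits), 5043 in LPS-primed against LPS-stimulated (1109) and 3900 in LPS-tolerant against LPS-stimulated BMDMs (909). In LPS-tolerant against LPS-primed BMDMs 713 passed, with 1116 by DESeq2, 454 with only those groups, 2034 with the block, 77 under the limits and 330 to 506 without 1 library. In the difference of responses 2691 passed (4091 with the block, 905 under the limits). With carboplatin, 42 passed in LPS-primed (121 by DESeq2, 19 with only those groups, 200 with the block, 24 to 36 without 1 library) and 48 in LPS-tolerant BMDMs (153 by DESeq2, 24 by limma-voom, 6 with only those groups, 200 with the block, 18 to 36 without 1 library).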
